A study of Homo sapiens with 4 samples.

Results

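The genes described here encode the respiratory chain and the mitochondrial ribosome. They were chosen by symbol alone, as every gene on the array whose current or older symbol begins with NDUF, SDHA to SDHD, UQCR, COX plus a digit, ATP5, MRPL or MRPS, together with CYC1 and CYCS. The rule found 40 of the 4604 named genes, 35 by their current or annotated symbol and 5 by an older one. Of these 5, COXFA4 (older symbol NDUFA4) and DAP3 (MRPS29) belong to the chain and the ribosome, while PTGS1, PTGS2 (the cyclooxygenases) and CCNI (cyclin I) share only an alias and are kept apart. That leaves 37 genes, of which 35 had a value on at least 3 arrays: 5 of complex I, 1 of complex II, 2 of complex III, 1 for cytochrome c, 4 subunits and 4 assembly factors of complex IV, 6 of complex V, and 6 each for the large and the small subunit of the mitochondrial ribosome. UQCRC1 had no value on any array, and MRPL43 had 1, a log2 ratio of -0.055 on day 4.

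The samples were EJM cells, an established multiple myeloma line, carrying a super-repressor form of IκBα (a form that keeps NF-κB inactive in the cytoplasm) under a tetracycline-regulated switch. Induced cells had 20 µg/ml doxycycline for 1, 2, 3 or 4 days at 37 °C, and uninduced cells of the same line and construct, with no doxycycline in their description, were the control on every array. Each day is 1 two-colour array, with induced cells in Cy5 and uninduced cells in Cy3. The sources used here do not say whether the line is a single clone or whether each day had its own control culture. A value is the log2 ratio of induced over uninduced cells. The direction follows the dyes in the labels, and base 2 is assumed because no base is given, so every sign rests on the dyes and every fold on the base.

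Complexes I to IV pass electrons from NADH and succinate to oxygen, and cytochrome c carries them between complexes III and IV. Complexes I, III and IV pump protons across the inner mitochondrial membrane, and complex V uses the proton gradient to make ATP. A few subunits are made inside the organelle by the mitochondrial ribosome, whose proteins are all encoded in the nucleus, and the rest are nuclear. Plasma cells and their malignant counterparts draw on this system while they secrete antibody.

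Across all 15246 probes of the table, 10321 to 13872 had a value per array. The SD of the log2 ratio over probes was 0.517 on day 1 and 0.569 on day 2, against 0.345 on day 3 and 0.38 on day 4, so the first 2 arrays were the more widely spread. The median over the 7713 features tested on the mean was -0.062, -0.081, 0.017 and 0.012 on days 1 to 4. NFKBIA, the gene the transgene derives from, averaged -0.14 ± 0.07 (SD, 4 arrays), and which of its probes can read the transgene is not known here. TNFAIP3, a target of NF-κB, had log2 ratios of -1.07, -1.52, -1.58 and -1.70 on days 1 to 4. Ratios carry no level, so the plasma cell label of the line could not be checked by the abundance of its markers.

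On day 1, 19 of 23 respiratory chain genes had a log2 ratio above 0, with a median of 0.46, and on day 4, 14 of 23 did, with a median of 0.01. The share of all tested features above 0 was 44.1% on day 1 and 51.6% on day 4. The medians on days 2 and 3 were 0.22 and 0.05. The chain therefore stood highest against the rest of the array on the first day and close to it on the last. The mitochondrial ribosome had medians of 0.26, 0.08, 0.0028 and -0.07 on days 1 to 4, over 12 genes. No gene of either group passed a test across all features, so these medians are descriptions of 4 single arrays. In RNA from whole cultures, fewer cells of a type and less RNA per cell cannot be told apart.

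**Figure D1:**
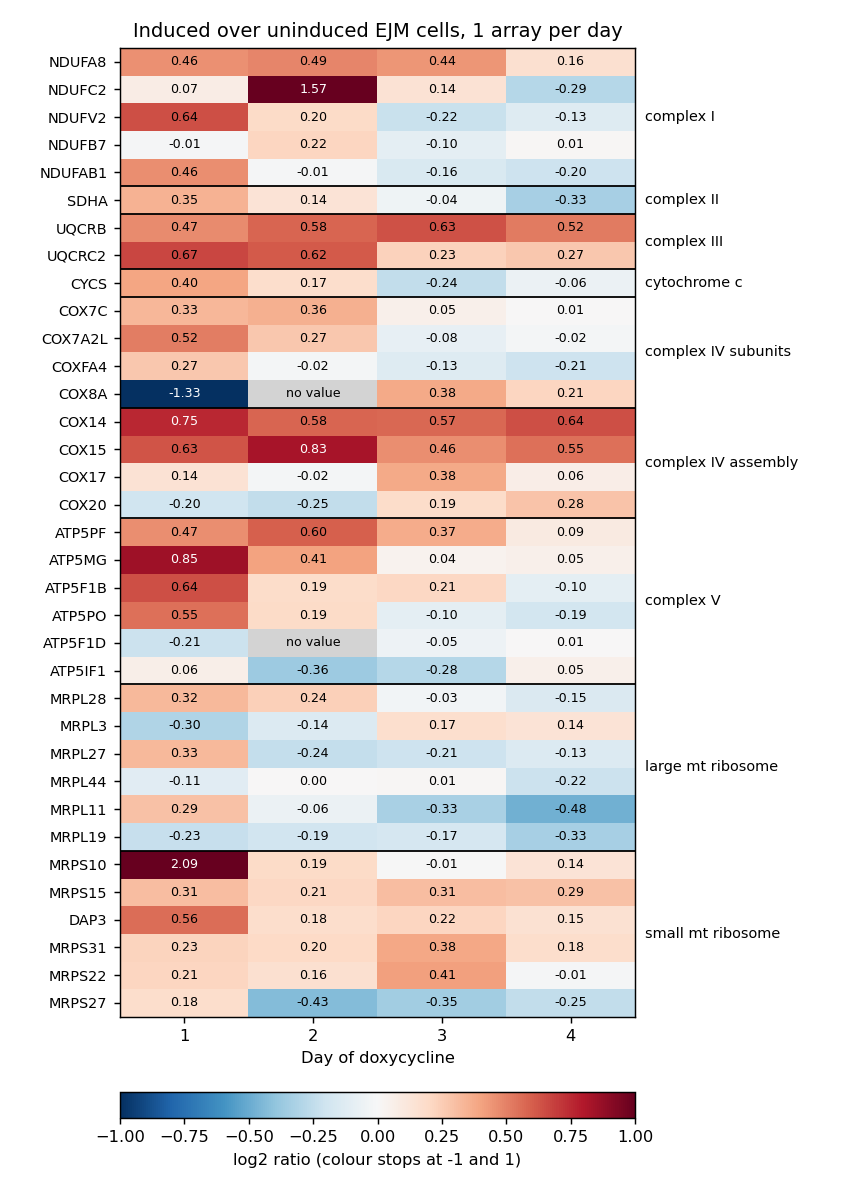
Log2 ratio of induced over uninduced cells for the 35 genes with a value on at least 3 arrays (rows, grouped by complex) on days 1 to 4 (columns, 1 array each). Red is above 0, blue below 0, grey has no value, and COX14, COX15, UQCRB and UQCRC2 are red on all 4 days.

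To show the regulatory sequence in front of the genes with the highest means and with declining ratios, 4 promoters are printed: those of COX14 and COX15 on the one hand, and ATP5PO and SDHA on the other. The 4 are examples, and ATP5PO and SDHA do not have the steepest slopes. Each is the RefSeq window (GRCh38.p14) from 250 bases before to 50 bases after the gene's start, 5′ to 3′ on the gene's strand. COX14 is at chr12:50111986-50112285 (plus strand), COX15 at chr10:99732078-99732377 (minus strand), ATP5PO at chr21:33915755-33916054 (minus strand) and SDHA at chr5:218070-218369 (plus strand). Capitals mark matches on either strand to an NRF1 core (GCGC, any base, TGCGC), an ETS core (CCGGAAG) or a YY1 core (AAGATGGC). NRF1, the ETS factor GABP and YY1 are known activators of nuclear genes for mitochondrial proteins. The marked matches do not overlap one another.
COX14: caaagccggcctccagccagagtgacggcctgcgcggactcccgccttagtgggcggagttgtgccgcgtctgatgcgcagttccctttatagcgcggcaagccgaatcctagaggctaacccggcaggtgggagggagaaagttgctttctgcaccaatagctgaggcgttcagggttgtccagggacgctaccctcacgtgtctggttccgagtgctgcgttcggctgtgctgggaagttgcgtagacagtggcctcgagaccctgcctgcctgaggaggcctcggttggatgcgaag
COX15: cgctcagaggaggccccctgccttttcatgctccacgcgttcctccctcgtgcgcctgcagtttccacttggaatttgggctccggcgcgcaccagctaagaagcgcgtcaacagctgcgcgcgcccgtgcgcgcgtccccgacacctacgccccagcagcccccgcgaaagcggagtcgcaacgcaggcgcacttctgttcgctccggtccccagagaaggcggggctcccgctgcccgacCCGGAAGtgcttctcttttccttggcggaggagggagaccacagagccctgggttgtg
ATP5PO: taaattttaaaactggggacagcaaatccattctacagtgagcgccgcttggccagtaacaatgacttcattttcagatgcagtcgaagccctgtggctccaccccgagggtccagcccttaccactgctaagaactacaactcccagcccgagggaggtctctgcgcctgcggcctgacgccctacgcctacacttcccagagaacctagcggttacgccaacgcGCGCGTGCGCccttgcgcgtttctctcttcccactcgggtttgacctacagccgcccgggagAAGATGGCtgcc
SDHA: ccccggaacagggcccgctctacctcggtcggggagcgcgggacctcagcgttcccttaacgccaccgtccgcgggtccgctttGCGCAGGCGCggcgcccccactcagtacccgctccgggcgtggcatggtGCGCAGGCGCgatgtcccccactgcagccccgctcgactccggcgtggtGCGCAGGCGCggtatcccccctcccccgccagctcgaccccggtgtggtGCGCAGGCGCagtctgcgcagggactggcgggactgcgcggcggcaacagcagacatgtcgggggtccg

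The SDHA window holds 4 matches to the NRF1 core, ATP5PO holds 1 NRF1 and 1 YY1 core, COX15 holds 1 ETS core, and COX14 holds 0 of the 3 motifs. Among other genes with high means, NDUFA8 has an NRF1 core, ATP5PF an ETS and a YY1 core, and UQCRC2 and MRPS15 none of the 3. Among others with declining ratios, ATP5MG has an ETS core, MRPS10 an ETS and a YY1 core, and NDUFV2 and MRPL11 none of the 3. Whether a motif goes with the mean or the slope was not tested. Promoters were matched for 33 of the 37 genes, taking the first start listed where a gene has several. ATP5F1B, ATP5F1D, NDUFC2 and UQCRB had no promoter to search. The ETS core was in 13 of 33 (39.4%), against 10.7% of 27305 promoters of all genes. The NRF1 core was in 5 of 33 (15.2%), against 6.28% of all, and the YY1 core in 5 of 33 (15.2%), against 3.03%. A κB core (GGGA, any 4 bases, CC), the kind of site NF-κB recognises, was in 6 of 33 (18.2%), against 25.1% of all promoters. The 6 were ATP5PF, CYCS, MRPS27, MRPS31, NDUFB7 and UQCRC2. These matches are descriptions of letters in a window and are not evidence of binding.

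The average over the days addressed which of these genes differed with induction. With limma, 0 of 35 passed on the mean at an adjusted p under 0.05, a threshold that 0.337% of the 7713 features passed. At an unadjusted p under 0.05, 7 of 35 (20.0%) had a positive mean, against 6.47% of all features, and 0 had a negative mean, against 6.0% of all features. The 7 were COX14, COX15, UQCRB, UQCRC2, NDUFA8, ATP5PF and MRPS15. Without the day 3 array the 7 became 4 of 33. Without the day 1 array 1 of 33 had a negative mean at an unadjusted p under 0.05. The share of all features with an array left out is not given here. In all, 25 of 35 means lay above 0, against 43.9% of all features. With values on all 4 arrays, 11 of 33 genes (33.3%) lay above 0 on every day, against 11.7% of all features, and 1 of 33, MRPL19, lay below 0 on every day, against 13.4%.

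The highest means were those of 2 assembly factors of complex IV, the oxidase that reduces oxygen to water. COX14, which couples assembly to the synthesis of a mitochondrially encoded catalytic subunit, had log2 ratios of 0.75, 0.58, 0.57 and 0.64 on days 1 to 4. All 4 arrays lay close together, and the mean of 0.64 ± 0.08 (SD, 4 arrays) is a 1.56-fold ratio (limma adjusted p = 0.094), the 51st smallest p of 7713. COX15, an enzyme of haem A synthesis, had 0.63, 0.83, 0.46 and 0.55, with a mean of 0.62 ± 0.15 (limma adjusted p = 0.121). Both genes rest on 1 probe each. With array weights and with days 3 and 4 alone, COX14, COX15 and UQCRB passed (limma adjusted p from 0.0197 to 0.295 over the alternatives for COX14). The share of all features that passed under these settings is not given here.

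The other factors of complex IV did not share this pattern. COX17, the copper chaperone, had 0.14, -0.02, 0.38 and 0.06 on days 1 to 4, from 4 probes that disagreed: 1 probe read -0.96 on day 1, where the other 3 read between 0.448 and 0.585. COX20, a chaperone for a copper-binding subunit, had -0.20, -0.25, 0.19 and 0.28. Its later 2 days were above its first 2, the opposite order to most of the chain, and its 3 probes had means from -0.14 to 0.14. This order was not shared by 1 of the 3 probes, which read -0.023, 0.028, -0.163 and 0.238.

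Complex III, which hands electrons to cytochrome c, was positive on every day. UQCRB, a subunit near the ubiquinone site, had 0.47, 0.58, 0.63 and 0.52 on days 1 to 4, with a mean of 0.55 ± 0.07 (SD, 4 arrays; limma adjusted p = 0.123). Its 2 probes had means of 0.49 and 0.61, and all 8 probe values lay above 0, from 0.221 to 0.836. UQCRC2, a core protein of the complex, had 0.67, 0.62, 0.23 and 0.27, with a mean of 0.45 ± 0.23 (limma adjusted p = 0.256). Days 1 and 2 of UQCRC2 lay above days 3 and 4, while UQCRB showed no such step.

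In complex I, the entry point for electrons from NADH, all 5 means lay above 0, from 0.02 to 0.38 (NDUFAB1 was at -0.02 with scaled arrays), and none passed. NDUFA8, an accessory subunit on the intermembrane side, had 0.46, 0.49, 0.44 and 0.16 on days 1 to 4 (mean 0.38 ± 0.15, SD, 4 arrays; limma adjusted p = 0.273). NDUFC2, an accessory subunit of the membrane arm, had 0.07, 1.57, 0.14 and -0.29, so its mean of 0.38 ± 0.82 rests on the day 2 array. It was the 1 gene of 33 at least 2-fold higher on day 2 (3.03%, close to the 2.21% of all features), and 0 were at least 2-fold lower (3.29% of all features). NDUFV2, an iron-sulphur subunit of the NADH-oxidising module, had 0.64, 0.20, -0.22 and -0.13. NDUFAB1, the mitochondrial acyl carrier protein, had 0.46, -0.01, -0.16 and -0.20 from 2 probes that were both highest on day 1. NDUFB7, an accessory subunit, had -0.01, 0.22, -0.10 and 0.01, and its probe with all 4 values read -0.138 and -0.175 on days 3 and 4, where a second probe entered. Apart from NDUFA8 the genes lay near or below 0 by day 4.

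SDHA, the flavoprotein of complex II and also an enzyme of the tricarboxylic acid cycle, had 0.35, 0.14, -0.04 and -0.33 on days 1 to 4. Its 2 probes differed, with mean ratios of -0.28 and 0.33, and each declined from day 1 to day 4. CYCS, cytochrome c, had 0.40, 0.17, -0.24 and -0.06, and its 2 probes parted on day 4, at -0.505 and 0.383. For both genes the average over probes lay above 0 on days 1 and 2 and below it on days 3 and 4. Neither SDHA probe changed sign at that point: 1 lay below 0 on all 4 days and the other above 0 on days 1 to 3.

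Among the complex IV subunits, COX7C had 0.33, 0.36, 0.05 and 0.01 on days 1 to 4, where its day 1 value includes a probe (0.56) with no value on the other days. COX7A2L, which joins complexes III and IV into supercomplexes, had 0.52, 0.27, -0.08 and -0.02. COXFA4, once counted with complex I, had 0.27, -0.02, -0.13 and -0.21. COX8A ran the other way, with -1.33 on day 1, no value on day 2, and 0.38 and 0.21 on days 3 and 4. It rests on 1 probe and was the 1 gene of 35 at least 2-fold lower on day 1 (2.86%, close to the 2.24% of all features). On day 3, 0 of 35 were at least 2-fold higher or lower (0.458% and 0.418% of all features), nor on day 4 (0.797% and 0.457%).

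Complex V, the ATP synthase, had its highest median on day 1. ATP5F1B, the catalytic β subunit, had 0.64, 0.19, 0.21 and -0.10 on days 1 to 4, and each of its 3 probes was highest on day 1 and lowest on day 4. ATP5MG, a subunit of the membrane part, had 0.85, 0.41, 0.04 and 0.05. ATP5PO, which links the peripheral stalk to the catalytic head, had 0.55, 0.19, -0.10 and -0.19. ATP5PF, also of the peripheral stalk, stayed positive at 0.47, 0.60, 0.37 and 0.09 (mean 0.38 ± 0.22, SD, 4 arrays; limma adjusted p = 0.307). ATP5F1D, of the central stalk, differed from these with -0.21, no value, -0.05 and 0.01, and the inhibitor ATP5IF1, which blocks ATP hydrolysis when respiration fails, had 0.06, -0.36, -0.28 and 0.05. On day 3 a second ATP5IF1 probe, with no value on the other days, read -0.535, where the probe with all 4 values read -0.028.

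**Figure D2:**
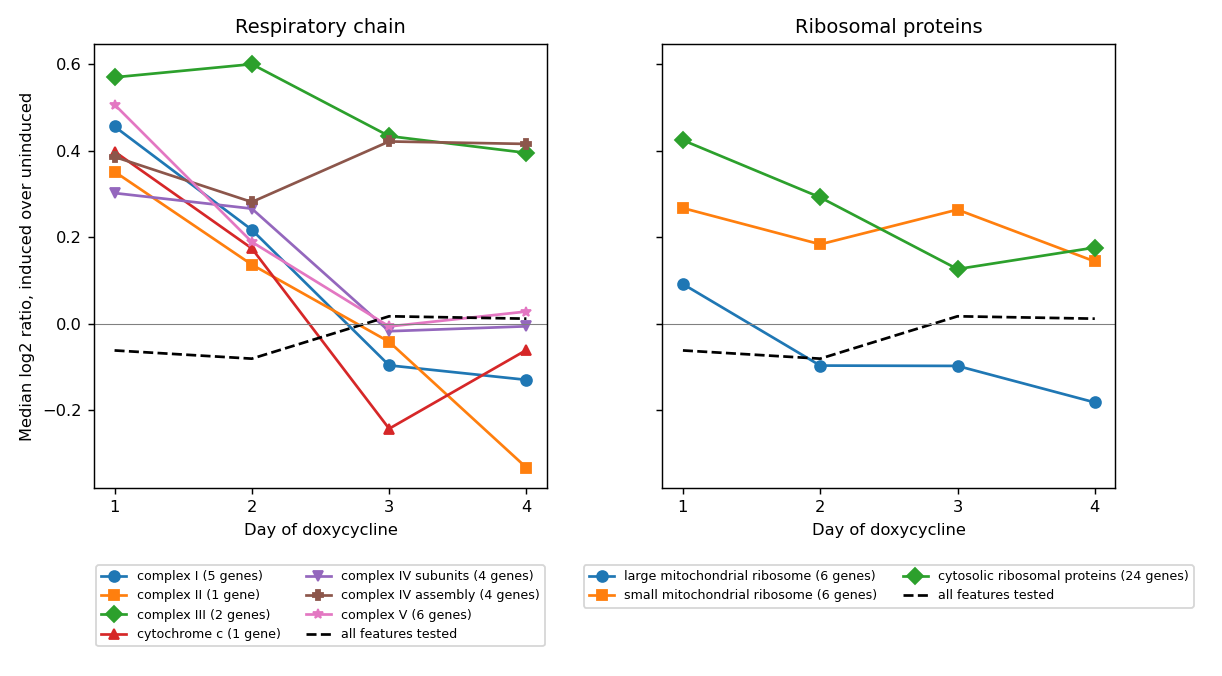
Median log2 ratio of induced over uninduced cells per day for each complex (left) and for ribosomal proteins (right), with the median over all 7713 tested features as a dashed line. Complexes I, II, IV and V and cytochrome c start above 0.3 on day 1 and end near or below 0, while complex III and the complex IV assembly factors stay above 0.25.

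Day 1 medians were 0.46 for complex I, 0.57 for complex III, 0.30 for the complex IV subunits, 0.39 for its assembly factors and 0.51 for complex V. On day 4 they were -0.13, 0.40, -0.01, 0.42 and 0.03 in the same order. Complex III has 2 genes, complex II and cytochrome c 1 each, so a single gene can set these values. The differences between complexes were not tested.

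The subunits of the mitochondrial ribosome had different medians. The small subunit, which reads the mRNA, had medians of 0.27, 0.18, 0.26 and 0.14 on days 1 to 4, with 6, 5, 4 and 4 of 6 genes above 0. The large subunit, which forms peptide bonds, had 0.09, -0.10, -0.10 and -0.18, with 3, 1, 2 and 1 of 6 above 0. This difference between the subunits was not tested, and 0 of 12 genes passed on the mean.

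In the small subunit MRPS15 was the steadiest on the average of its probes, with 0.31, 0.21, 0.31 and 0.29 on days 1 to 4 (mean 0.28 ± 0.05, SD, 4 arrays; limma adjusted p = 0.362). Its 3 probes were less steady, and on day 4 they read 0.771, 0.163 and -0.058. MRPS31 had 0.23, 0.20, 0.38 and 0.18, and DAP3, a GTP-binding protein of the subunit, had 0.56, 0.18, 0.22 and 0.15. All 3 probes of DAP3 read between 0.529 and 0.584 on day 1. MRPS22 had 0.21, 0.16, 0.41 and -0.01. MRPS27, which carries RNA-binding pentatricopeptide repeats, was the exception with 0.18, -0.43, -0.35 and -0.25. MRPS10 had 2.09, 0.19, -0.01 and 0.14, and its mean of 0.60 ± 1.00 rests on day 1, where it was the 1 gene of 35 at least 2-fold higher (2.86%, against 1.51% of all features). That day 1 value comes from a single probe, since the second probe had no value there and read 0.027, -0.158 and -0.059 on days 2 to 4.

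In the large subunit MRPL19 had -0.23, -0.19, -0.17 and -0.33 on days 1 to 4, the only one of the 33 genes with 4 values to lie below 0 on every array (mean -0.23 ± 0.07, SD, 4 arrays; limma adjusted p = 0.436). MRPL11 had 0.30, -0.06, -0.33 and -0.48, and MRPL28 had 0.32, 0.24, -0.03 and -0.15. A second MRPL28 probe entered on days 3 and 4 only, and the probe with all 4 values read 0.323, 0.242, 0.209 and 0.193. MRPL27 had 0.33, -0.24, -0.21 and -0.13, and MRPL44 had -0.11, 0.00, 0.01 and -0.22. MRPL3 had -0.30, -0.14, 0.17 and 0.14. Its 2 probes, with means of -0.32 and 0.26, were both higher on days 3 and 4 than on days 1 and 2.

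**Figure D3:**
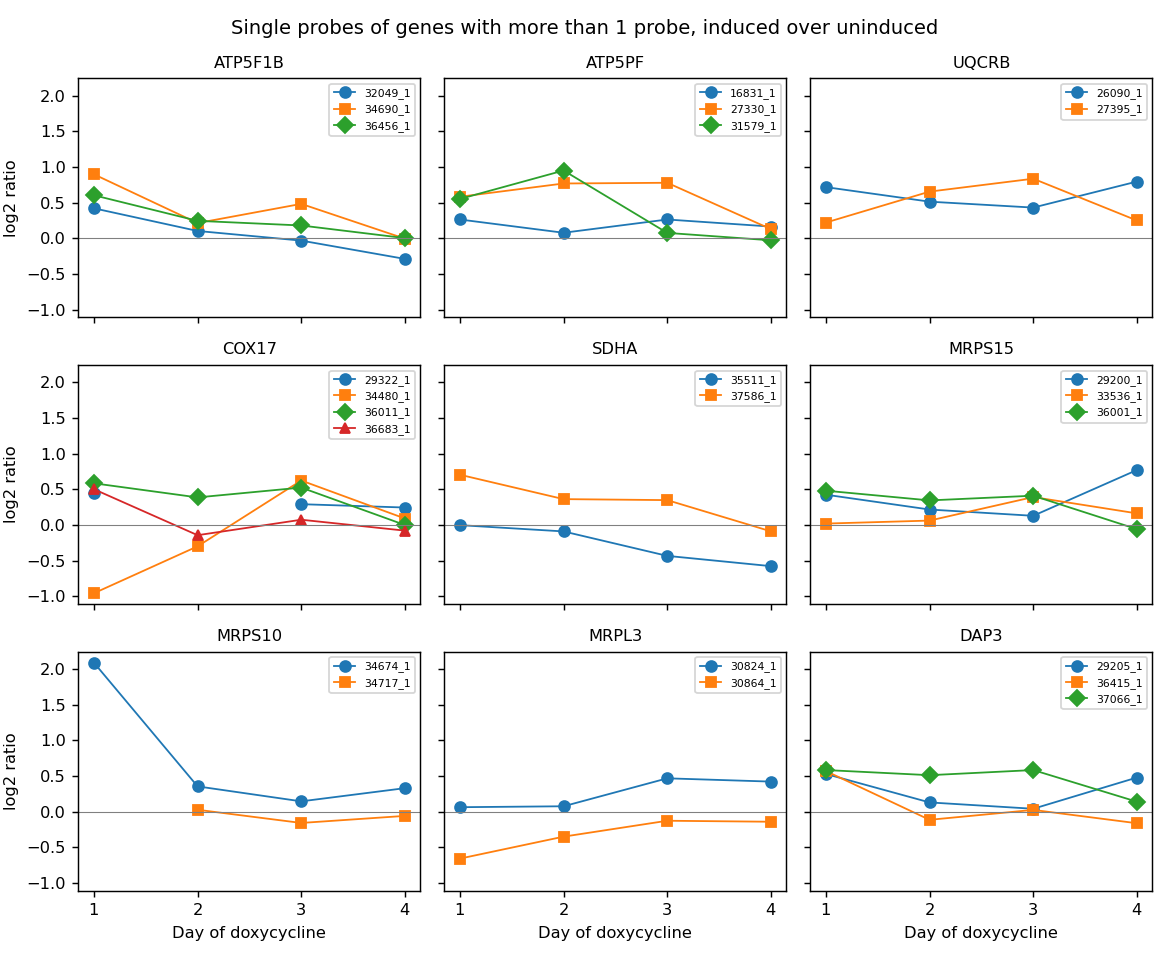
Log2 ratio of induced over uninduced cells by day for each probe (lines) of 9 genes with more than 1 probe. Each of the 3 probes of ATP5F1B and the 2 of SDHA is highest on day 1 and lowest on day 4, 1 probe of COX17 reads -0.96 on day 1, and the day 1 value of 2.09 for MRPS10 has a single probe behind it.

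Change over the course of induction was measured per gene as a slope in log2 per day. With limma, 0 of 33 genes passed, as did 0.0% of the 6427 features with 4 values, and the smallest adjusted p among the 33 was 0.309. At an unadjusted p under 0.05, 7 of 33 (21.2%) had a negative slope, against 5.73% of all features, and 0 had a positive one, against 9.26%. Without the day 1, day 3 or day 4 array the 7 became 1, 0 and 1 of 33, and without day 2 it was 8 of 35. The share of all features at these settings is not given here, so these counts cannot be set against the array. The 7 were NDUFV2, SDHA, ATP5F1B, ATP5MG, ATP5PO, MRPL11 and MRPS10. None of them was from complex III, cytochrome c or complex IV.

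Slopes were negative for 17 of 21 respiratory chain genes, against 45.8% of all features. This count was 17 of 21 without the day 1 or day 4 array, 18 of 21 without day 3 and 18 of 23 without day 2. It was 16 once every array was given an equal spread, and was 20 (52.1% of all features) with each array centred on its median. The median slope of the chain was -0.16 log2 per day, and that of all features 0.02. The steepest in the chain were ATP5MG at -0.28 ± 0.09 (limma's moderated SE, 4 arrays), NDUFV2 at -0.27 ± 0.10, NDUFC2 at -0.25 ± 0.26 and ATP5PO at -0.25 ± 0.08 log2 per day. The 4 chain genes with a slope above 0 were COX20 (0.19 ± 0.09), UQCRB (0.02 ± 0.08), COX17 (0.02 ± 0.10) and ATP5IF1 (0.01 ± 0.11), and with centred arrays COX20 alone of these was above 0. Of these 4, COX17 and COX20 are assembly factors and ATP5IF1 is an inhibitor, which leaves UQCRB as the structural subunit among them.

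In 13 of 21 chain genes both early values (days 1 and 2) lay above both later ones (days 3 and 4). This held for 22.4% of all features, for 10 of the 21 with arrays of equal spread and 17 with centred arrays (28.7% of all features), and for 16 of the 33 genes of the chain and ribosome together (48.5%). It held for 3 of 3 complex IV subunits with 4 values, 3 of 5 complex I genes, 3 of 5 complex V genes, SDHA, CYCS, UQCRC2 and COX15. Day 1 was the highest of the 4 days for 18 of 33 genes (54.5%), against 31.3% of all features. The pattern was not particular to these genes. Among cytosolic ribosomal proteins, 12 of 22 (54.55%) had both early values above both later ones. Day 1 was the highest for 16 of these 22 (72.73%). Both early values lay below both later ones for COX20 and MRPL3, 2 of 33 (6.06%), against 32.1% of all features. Time in culture cannot be told apart from time of induction here.

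For the mitochondrial ribosome 9 of 12 slopes were negative, with a median of -0.08. MRPS10 had the steepest, -0.61 ± 0.22 log2 per day, which rests on its day 1 probe value, followed by MRPL11 at -0.26 ± 0.08 (limma adjusted p = 0.309). MRPL3 had the steepest positive slope at 0.16 ± 0.08. The small subunit genes MRPS15 and MRPS31 had slopes of 0.0053 ± 0.08 and 0.004 ± 0.08.

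**Figure D4:**
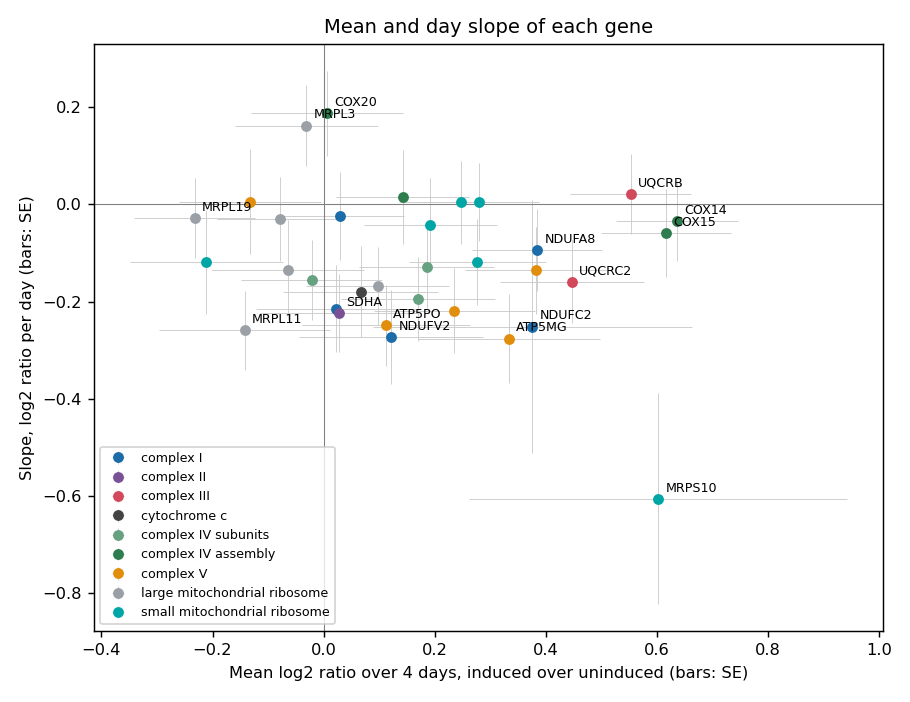
Mean log2 ratio over the 4 days (horizontal axis) against the slope per day (vertical axis) for the 33 genes with 4 values, coloured by complex, with bars of limma's moderated SE. COX14, COX15 and UQCRB lie at high means with slopes near 0, and most genes of complexes I, II and V lie below the zero-slope line.

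The mitochondrial ribosome had 6 of 12 means above 0, against 23 of 24 for proteins of the cytosolic ribosome. The cytosolic genes had medians of 0.42, 0.29, 0.13 and 0.18 on days 1 to 4. Of 22 with 4 values, 17 (77.27%) lay above 0 on every day, against 11 of 33 (33.33%) for the chain and mitochondrial ribosome. Negative slopes were found for 9 of 12 mitochondrial and 19 of 22 cytosolic ribosomal genes. The differences between these groups were not tested.

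Genes of the same organelle outside the symbol rule were counted in fixed lists, and 0 passed on the mean or the slope in any of them. Of 11 tricarboxylic acid cycle genes with 4 values 9 had a negative slope, with a median of -0.19 log2 per day. Their median was 0.38, 0.13, -0.07 and -0.14 on days 1 to 4. The steepest, chosen after their values were seen, were IDH3A of isocitrate dehydrogenase at -0.47 ± 0.14 (SE, 4 arrays) and PDHA1 of pyruvate dehydrogenase at -0.35 ± 0.08. The IDH3A values were 1.29, -0.01, -0.09 and -0.24 on days 1 to 4, so its mean and slope rest on day 1. DLD, the lipoamide dehydrogenase shared by several complexes, had the opposite slope of 0.31 ± 0.10. The 2 largest means were those of IDH3G and IDH3A (0.25 ± 0.36 and 0.24 ± 0.71, SD, 4 arrays).

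The import machinery had 5 genes tested and 3 of 3 negative slopes, with TOMM20, a receptor of the outer membrane, at 0.61, 0.70, 0.15 and -0.06 on days 1 to 4. Its largest means were TOMM20 at 0.35 ± 0.37 and TIMM44 at 0.22 ± 0.26 (3 arrays). Carriers and pores had 3 of 3 means above 0, led by UCP2 at 0.24 ± 0.11 and the ADP/ATP carrier SLC25A5 at 0.10 ± 0.24. Further assembly factors gave OXA1L at 0.12 ± 0.19, LRPPRC, which stabilises mitochondrial mRNA, at 0.24 ± 0.31, and TACO1 at -0.42 ± 0.75. The list of complex III and IV assembly factors had 3 of 3 positive slopes, with a median of 0.13 log2 per day. Its medians were -0.30, -0.21, 0.11 and 0.15 on days 1 to 4, where TTC19 had no value on day 2. TACO1 had -0.34, -1.50, 0.05 and 0.10 from 1 probe, so its mean rests on day 2. LRPPRC had 0.36, -0.21, 0.32 and 0.51, also from 1 probe. Beside DAP3, NOA1 was the other largest mean of its list at 0.31 ± 0.34.

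Of 3 tested genes that maintain and read the mitochondrial genome, 2 had means below 0, TFAM (the packaging and transcription factor) at -0.23 ± 0.25 and the polymerase subunit POLG2 at -0.25 ± 0.14 (SD, 4 arrays). Translation factors and mitochondrial tRNA synthetases had 1 of 3 means above 0, with HARS2 at -0.25 ± 0.35 and YARS2 at -0.08 ± 0.11. Among 6 nuclear regulators 2 means lay above 0, with the largest sizes at -0.20 ± 0.57 for GABPB1 and 0.17 ± 0.15 for SP1. No gene of the mitochondrial genome itself, and no complex V assembly factor of the list, was among the named probes.

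The median of the plasma cell markers was also lower on the later days: 0.57, 0.70, 0.24 and 0.13 on days 1 to 4 over 10 of 10 markers, with 8 of 10 slopes below 0. The 2 slopes above 0 were those of CD38 (0.06 ± 0.08, SE) and CD27 (0.27 ± 0.08). JCHAIN and CD38 had the largest means, 1.00 ± 0.50 and 0.69 ± 0.09 (SD, 4 arrays). CD38 had 0.56, 0.70, 0.76 and 0.74 on days 1 to 4, with no decline. T cell markers (9 of 11 tested) had medians of 0.02, -0.25, 0.0017 and 0.20, with PRF1 (-0.48 ± 0.33, 3 arrays) and CD5 (-0.42 ± 0.22) largest in size, while 5 of 9 means lay above 0, CD3D the highest at 0.36 ± 0.42. GZMA had -1.36, -0.44, 0.22 and 0.78, with a slope of 0.71 ± 0.09 (SE; limma adjusted p = 0.304). Myeloid markers (6 of 10) had 0.02, -0.03, -0.08 and 0.17, with CD14 (0.37 ± 0.46) and AIF1 (-0.28 ± 0.30, 3 arrays) largest. Red cell and stromal markers (6 of 10) had 0.36, 0.21, 0.15 and 0.23, with HBB (0.85 ± 0.09), which passed, and PECAM1 (0.52 ± 0.25) largest, while the other globins were at -0.14 ± 0.42 (HBA1) and 0.10 ± 0.24 (HBG1). The part of these markers, and of the wider spread of the day 1 and day 2 arrays, in the day pattern of the chain was not tested.

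The genes that share only an alias gave PTGS1 at -0.07, -0.04, 0.41 and 0.58 on days 1 to 4, CCNI at 0.31, 0.17, 0.10 and 0.02, and PTGS2 a single value of 0.12 on day 3. The 8 probes of CCNI with at least 3 values had means from -0.37 to 0.65. Neither PTGS1 nor CCNI passed on the mean (limma adjusted p = 0.573 and 0.608).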

How the data were processed

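Each array's deposited values are 2-channel log ratios as the authors processed them, taken here as log2. The dyes come from the labels' protocols. Direction and log base are not stated: the largest value of 7.26 would exceed a 16-bit scanner's range in base 10, and a natural log is possible. The sources used here do not give the normalization, background correction or spot filter. Dim spots could not be filtered, as no intensities were used, and the number of arrays limits the precision.

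Of 15246 probes, 10169 carry 1 gene symbol, 4 several and 5073 none. Symbols were updated by Entrez identifier in the RefSeq table (GRCh38.p14, matched for 10128 probes). Probes of a symbol were averaged per array, which gave 9681 features. The 40 genes have 76 probes, 74 of them with a value. Probes can cross-hybridise with processed pseudogenes, which are common for several of these genes.

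limma 3.58.1 (R 4.3.3; lmFit, eBayes, two-sided) tested the mean against 0 over features with at least 3 arrays, and the slope on day over those with 4, with Benjamini-Hochberg adjustment over all features and a threshold of 0.05. The arrays are different days, not replicates of 1 condition, and nothing says that they are separate cultures, so p-values measure the spread between these arrays. Every SE is limma's moderated SE, which draws on the variance of all features, while an SD is that of the gene's own arrays. The ratio leaves out the control's own spread, and the mean also holds dye bias and any effect of the doxycycline. The scripts were tested on simulated ratios with each feature's spread and missing values. At an adjusted p under 0.05, 10% of 50 mean shifts of 0.5 log2 and 2% of 50 slopes of 0.5 log2 per day were called. For a size of 1 these shares were 66% and 76%. A gene that did not pass can therefore still have a shift or slope of about 0.5 or less.

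Values in every array were set to be given for each called gene and for the 3 highest and 2 lowest means of each class. The same held for the 4 steepest slopes each way and for genes whose probe means differed in sign by over 1. The 2 largest means of each pathway list were also set to be named. Other genes were added after their values were seen. The genes, classes and lists were chosen with earlier results of these data known. Alternatives were array scaling, centring, array weights, probe summaries, missing values, days used and left-out arrays.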

Additional observations from a re-analysis of the deposited data

Results flagged for a closer look

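MRPS10 had a day 1 log2 ratio of 2.09, far from its other 3 days, which lay between -0.0065 and 0.191. DAP3 read 0.561 on day 1, against 0.152 to 0.217 on the other days. NDUFA8 read 0.158 on day 4, below the 0.438 to 0.487 of days 1 to 3. Each was singled out because the gap between 1 array and the nearest of the others, over the gene's whole range, exceeded Dixon's critical value for 4 values. Of 42 sets of 4 values checked in this way, 3 were singled out, and chance alone singles out about 1 in 20.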

How the results depend on the processing

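Induced and uninduced cells were compared within each array, and no other pairing was possible because each day has a single array. No gene passed on the slope under the alternatives run. On the mean 3 genes (COX14, COX15 and UQCRB) passed with array weights, and 3 with days 3 and 4 alone. The share of all features under these alternatives is not given here, so the counts in this paragraph cannot be set against the array. Adjusted p over 13 alternatives ran from 0.0197 to 0.295 for COX14, 0.0344 to 0.305 for COX15 and 0.0244 to 0.422 for UQCRB. Counts at an unadjusted p under 0.05 moved by more than 1.5 times as follows. With array weights there were 3 negative means, 1 positive slope and 11 negative slopes, and with days 3 and 4 alone 2 negative means. Leaving out each array in turn gave 4 to 6 positive means, 0 to 1 negative means, 0 to 1 positive slopes and 0 to 8 negative slopes. The probe with the fewest missing values gave 1 positive slope. Slopes above 0 numbered 2 with centred arrays and 3 with array weights. Fewer arrays leave fewer degrees of freedom, and the other causes were not tested.

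Of 184 class medians recomputed, 21 moved by more than the spread of the class over days. With scaled arrays complex III was 0.467 on day 1 and 0.570 on day 3, the complex IV assembly factors 0.316, 0.554 and 0.507 on days 1, 3 and 4, and the small ribosomal subunit 0.347 on day 3. With centred arrays the assembly factors were 0.362 on day 2 and the small subunit 0.330 and 0.265 on days 1 and 2. The median over probes gave 0.551 for the assembly factors on day 1, and probes with all 4 values 0.158 for the whole mitochondrial ribosome on day 3. The probe with the fewest missing values gave 0.694, 0.333 and 0.532 for complex III on days 1, 3 and 4, 0.226, 0.141, 0.599 and 0.505 for the assembly factors on days 1 to 4, and 0.364, 0.137 and 0.210 for the small subunit on days 1, 3 and 4.

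Signs turned for 16 means and 14 slopes, and 0 of the turned values passed. Scaled arrays gave means of 0.0093 (MRPL3), -0.0208 (NDUFAB1) and -0.0148 (SDHA), and slopes of -0.0024 (ATP5IF1), 0.0767 (COX14) and 0.0387 (COX15). Centred arrays gave means of 0.0125 (COXFA4) and 0.0031 (MRPL3), and slopes of -0.0224 (ATP5IF1), -0.0126 (COX17), -0.0229 (MRPS15), -0.0242 (MRPS31) and -0.0072 (UQCRB). Array weights gave means of -0.0469 (ATP5PO), 0.1638 (COX8A), -0.0918 (CYCS), -0.0119 (MRPL28), 0.0931 (MRPL3), -0.1064 (NDUFAB1), -0.0256 (NDUFB7), -0.0815 (NDUFV2) and -0.0868 (SDHA), and slopes of -0.0116 (ATP5IF1), -0.0029 (COX17), -0.0016 (MRPS15) and -0.0028 (MRPS31). The median over probes gave a mean of -0.0625 (COX20), and slopes of -0.0737 (COX17) and -0.0611 (MRPS15). The probe with the fewest missing values gave means of -0.1352 (COX17), -0.0558 (CYCS), 0.2572 (MRPL3), -0.0275 (NDUFB7) and -0.2755 (SDHA), and a slope of -0.0702 (MRPS31). Probes with all 4 values gave a mean of -0.0275 (NDUFB7). Days 1 and 2 alone gave means of -0.223 (COX20), 0.127 (COXFA4), 0.119 (MRPL11) and 0.0445 (MRPL27). Days 3 and 4 alone gave means of -0.143 (ATP5PO), -0.05 (COX7A2L), 0.2955 (COX8A), -0.152 (CYCS), -0.0875 (MRPL28), 0.1555 (MRPL3), -0.1795 (NDUFAB1), -0.0432 (NDUFB7), -0.072 (NDUFC2), -0.176 (NDUFV2) and -0.1875 (SDHA). Leaving out each array gave means from -0.0323 to 0.2123 (ATP5PO), -0.0863 to 0.0902 (COX20), -0.119 to 0.0413 (COXFA4), -0.0433 to 0.1703 (CYCS), -0.098 to 0.058 (MRPL3), -0.1238 to 0.0985 (NDUFAB1), -0.0335 to 0.071 (NDUFB7), -0.0233 to 0.597 (NDUFC2), -0.0523 to 0.236 (NDUFV2) and -0.0795 to 0.1487 (SDHA). Leaving out each array gave slopes from -0.1713 to 0.208 (ATP5IF1), -0.0895 to 0.0305 (COX14), -0.017 to 0.1171 (COX17), -0.07 to 0.0325 (MRPL19), -0.2685 to 0.052 (MRPL27), -0.1085 to 0.062 (MRPL44), -0.0046 to 0.042 (MRPS15), -0.086 to 0.0985 (MRPS22), -0.2615 to 0.092 (MRPS27), -0.0151 to 0.0785 (MRPS31), -0.1035 to 0.001 (NDUFB7), -0.9305 to 0.0345 (NDUFC2) and -0.0308 to 0.082 (UQCRB). The cause was not tested.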
